A study of Mus musculus with 68 samples.

Results

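The Vmn1r genes are the family-1 vomeronasal receptors of the mouse, taken here as every gene whose symbol is Vmn1r followed by digits alone. There were 208 such genes among 24941 genes named in the 8 deposited expression tables. The family was chosen by the measured FPKM of Vmn1r112 and Vmn1r139, which were lower in oocytes without Ezhip, so the difference between KO and WT oocytes is described below without a test. The other stages and the sequences took no part in that choice. Whether the heterozygous oocytes did is not stated.

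Vomeronasal receptors are G protein-coupled receptors of sensory neurons in the vomeronasal organ, where they detect pheromones and other chemical cues. A family-1 receptor works with the G protein alpha subunit Gnai2 and the cation channel Trpc2, and each mature sensory neuron normally uses a single receptor gene. The genes are mostly intronless and lie in clusters of recent duplicates, so several copies have almost the same sequence. Neither oocytes nor early embryos are the tissue in which these receptors are known to act.

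The study asked how loss of Ezhip, which encodes an inhibitor of the histone methyltransferase complex PRC2, changes gene expression in mouse oocytes and embryos. Oocytes labelled FGO were wild type (WT, 2 libraries), Ezhip Het (2) or Ezhip KO (3). Embryos were WT, Ezhip mHet or Ezhip mKO, with 2 libraries of each at the 1-cell stage (PN5) and the late 2-cell stage, 2, 1 and 3 at the 8-cell stage, 7 of each at E3.5 in 2 tables, 4, 2 and 4 at E4.25, and 2 of each in epiblast and in extraembryonic ectoderm at E6.5. Both mHet columns at E4.25 were the same in every gene and count as 1 library, which leaves 67 libraries. Every group other than WT is labelled with a change at Ezhip, and the labels name no other allele or agent for any group. The sample titles do not spell out the m of mHet and mKO or give the embryo's own genotype. The sources used here do not give how the gene was deleted, the strain, the age of the females or the number of oocytes or embryos in a library, and nothing says that libraries came from separate animals. The p-values below therefore measure the spread between these libraries, which may be technical.

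Values are FPKM as deposited, a unit that scales reads or fragments for gene length and library size, and the depth behind them is unknown. Each table was normalized by itself, so levels in different tables are set side by side and not tested. Ezhip, listed under its older symbol AU022751, was at 546 and 297 FPKM in WT oocytes, at 143 and 84.1 in Het oocytes and at 0 to 0.175 in KO oocytes. The 1-cell mKO embryos were at 0.933 and 0.124 against 251 and 368 in WT. At the late 2-cell stage Ezhip was at 0 and 0.585 in mKO against 15.9 and 15.7 in WT. In E6.5 epiblast it was at 0.630 and 0 in mKO against 0.618 and 0.772 in WT. All 8 oocyte marker genes had a median of at least 1 FPKM in the oocyte table, and all 6 of the 2-cell marker genes that the late 2-cell table lists did so there. The 7 genes listed for follicle somatic cells summed to 1.41 to 15.1 FPKM in the oocyte libraries. Of these, 1 had a median of at least 1 FPKM and Amh, a granulosa cell gene, was listed at 0 in every library, and their part in the results was not tested. At E4.25 the summed level of 5 trophoblast markers ran from 0 to 165.6 FPKM and the ribosomal transcript Rn45s held 11.7 to 68.6% of a library's summed FPKM. Between 7316 and 9801 genes reached 1 FPKM in an oocyte library, and the bulk libraries cannot tell fewer cells of a type from less RNA per cell.

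The results turn on 4 genes of the chromosome 7 cluster, Vmn1r112, Vmn1r139, Vmn1r132 and Vmn1r157, each with a coding sequence of 894 bases. Vmn1r139 and Vmn1r132 had identical coding sequences. Vmn1r112 differed from both at T411G, G412T and C413G, counted from the A of the start codon, with the base of Vmn1r112 first. Vmn1r157 differed from Vmn1r112 at G69T, G74A and C137A and from Vmn1r139 and Vmn1r132 at 6 bases. The pairwise identities were thus 100%, 99.7% and 99.3%. Both stretches that hold these differences are shown 5′ to 3′ from the GENCODE M21 transcripts, because they are the only coding bases by which a read could be placed in one copy rather than another. Capitals mark a base that differs from Vmn1r112. Bases 61 to 140 separate Vmn1r157 from the other copies.
Vmn1r112: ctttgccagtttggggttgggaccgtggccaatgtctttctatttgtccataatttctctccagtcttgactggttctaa
Vmn1r157: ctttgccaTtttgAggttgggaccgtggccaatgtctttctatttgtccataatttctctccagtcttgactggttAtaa
Bases 397 to 426 separate Vmn1r139 and Vmn1r132 from Vmn1r112 and Vmn1r157.
Vmn1r112: agtgtcccaaattttgcgaattattcttgc
Vmn1r139: agtgtcccaaatttGTGgaattattcttgc

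Of all 100-base stretches of the coding sequence, 0% were unique to 1 gene for Vmn1r112, Vmn1r139 and Vmn1r132, and 17.2% were unique to Vmn1r157. Between 63.8% and 73.1% of the 100-base stretches occurred in none of the other genes beyond the 4 copies. At 50 bases the corresponding range was 35.3 to 41.3%. Reads of the 4 genes can thus be assigned to the group better than to any single copy, and the sources used here do not say how reads with several possible origins were counted. The value of each copy is accordingly uncertain, and their sum is given beside it.

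In oocytes these 4 genes carried nearly all of the family's signal. Vmn1r112 was at 39.9 and 24.2 FPKM (WT), 12.5 and 17.4 (Het) and 12.6, 7.87 and 17.2 (KO). Vmn1r139 was at 28.9 and 20.3 (WT), 11.4 and 15.8 (Het) and 10.4, 5.94 and 14.8 (KO). In both genes each WT library was above every Het and KO library, while Het and KO overlapped. Vmn1r132 was at 15.7 and 11.9 FPKM (WT), 6.76 and 9.12 (Het) and 6.43, 3.64 and 8.67 (KO). It followed the same order, again with overlap of Het and KO. Vmn1r157 was at 12.0 and 8.87 FPKM (WT), 9.27 and 6.53 (Het) and 4.51, 2.67 and 5.69 (KO). Its first Het library lay between the WT libraries, so that WT and Het overlapped in this gene alone of the 4.

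Together the 4 copies summed to 80.9 ± 22.1 FPKM in WT (SD, n = 2), 44.4 ± 6.22 in Het (SD, n = 2) and 33.5 ± 13.1 in KO oocytes (SD, n = 3). They made up 90.5 to 94.6% of the family's summed FPKM in each oocyte library. The library names are numbered from 1 to 7 without a gap, and the order of genotypes starts again after 4. A split at that point follows this order alone, since the labels state no batch. In libraries 1 to 4 the copies summed to 96.5 (WT), 40.0 (Het) and 33.9 and 20.1 FPKM (KO), and in libraries 5 to 7 to 65.3 (WT), 48.8 (Het) and 46.3 (KO). WT was highest and KO lowest on both sides of the split, with a narrower gap in libraries 5 to 7. The choice of the family rests on these WT and KO libraries, so nothing is read from this order. The libraries of WT 1, Het 1 and KO 1 had 7316 to 7395 genes at or above 1 FPKM, those of WT 2, Het 2 and KO 3 had 9432 to 9801, and that of KO 2, where the copies summed lowest, had 8443. The part of this difference in the values was not tested.

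**Figure D1:**
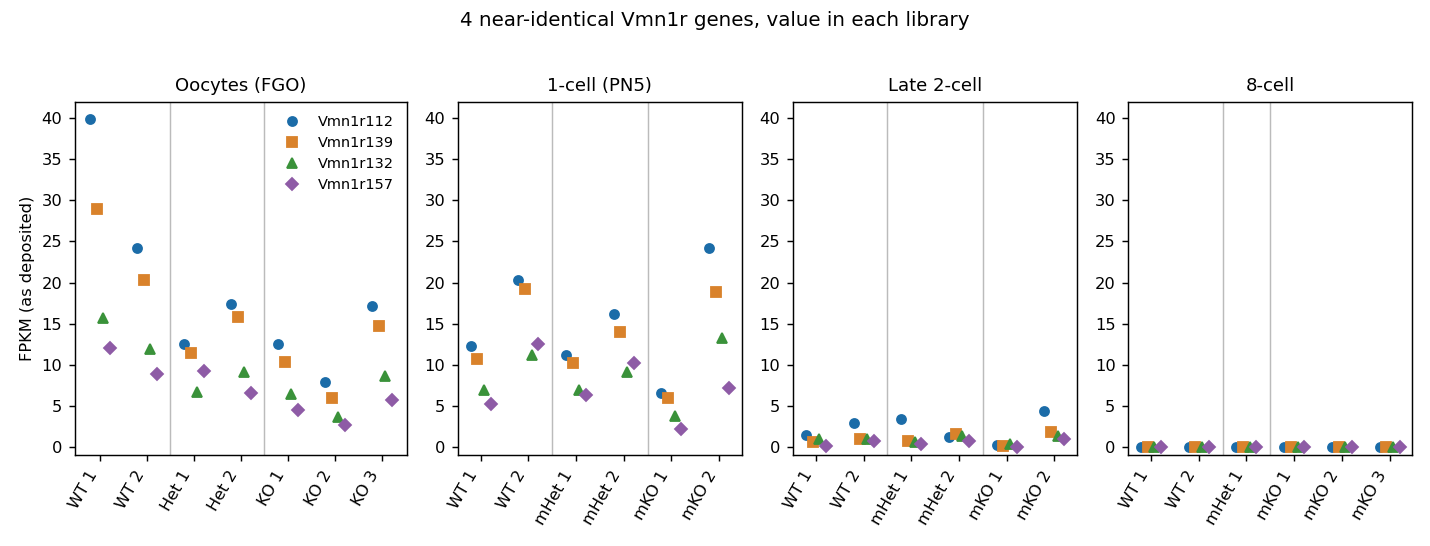
FPKM as deposited (linear axis, the same in each panel) of Vmn1r112, Vmn1r139, Vmn1r132 and Vmn1r157 in every library of oocytes (FGO), 1-cell, late 2-cell and 8-cell embryos, with 1 point for each gene and library and grey lines between genotypes. In oocytes the WT libraries are highest for Vmn1r112 (39.9 and 24.2), in 1-cell embryos the genotypes overlap, and at the 8-cell stage all points lie at or near 0.

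On the log2(FPKM + 1) scale the difference between KO and WT oocytes was -1.30 for Vmn1r112, -1.23 for Vmn1r139, -1.14 for Vmn1r157 and -1.09 for Vmn1r132, against a median of -0.05 over all genes kept. A gene was kept in a table if it reached 1 FPKM in at least 2 libraries. All 4 were lower in KO without overlap and none was higher, against 1.12% of the 9818 genes kept lower and 0.845% higher. Ezhip was the 1 gene called by limma in that contrast, 0.0102% of the genes kept. The choice of the family rests on this contrast and the copies can share reads, so nothing is read from these shares.

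Het against WT oocytes gives a contrast that shares the WT libraries, and possibly the Het libraries, with the choice. The difference was -1.03 ± 0.70 (SE) for Vmn1r112, -0.81 ± 0.72 for Vmn1r139, -0.73 ± 0.78 for Vmn1r132 and -0.37 ± 0.79 for Vmn1r157 on the log2(FPKM + 1) scale. None passed the threshold of 0.05 by limma with Benjamini-Hochberg adjustment over all genes kept (adjusted p = 0.999999 for each, 0 of 4 at an unadjusted p under 0.05). The share of all genes called in that contrast was 0%, and 7 of the 9818 genes kept had an unadjusted p under 0.05 by limma. Vmn1r112, Vmn1r139 and Vmn1r132 were lower in Het than in WT without overlap and none was higher, against 1.32% of all genes kept lower and 2.13% higher. Both contrasts use the same 2 WT libraries, and the high value of WT 1 enters each. These WT libraries took part in the choice and the copies can share reads, so nothing is read from these shares either.

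The remaining members were low in oocytes. Vmn1r35, on chromosome 6, was the only other one to reach 1 FPKM, at 0.16 and 0.95 (WT), 0.45 and 0.98 (Het) and 0.72, 0 and 1.16 (KO), with overlapping genotypes. Just below that level was Vmn1r233, at 0.73 in WT 2 and no higher than 0.31 elsewhere. In all, 38 of the 208 members reached 0.1 FPKM in at least 1 oocyte library and 132 were listed at 0 in each. Another group of duplicates gave identical values. Vmn1r107, Vmn1r130, Vmn1r137, Vmn1r155 and Vmn1r165 had the same value as one another in every oocyte library, from 0.09 to 0.41 FPKM. These 5 symbols thus give 1 measurement.

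The copies were also compared with one another within each library. Over the 13 oocyte and 1-cell libraries, Vmn1r139 was at 0.725 to 0.948 of the Vmn1r112 level (median 0.866) and Vmn1r132 at 0.395 to 0.619 (median 0.540). Vmn1r157 varied more, from 0.299 to 0.740 (median 0.367), with its highest ratio in Het 1 oocytes. In late 2-cell embryos, where the 4 copies summed to 0.861 to 8.58 FPKM, the ratios to Vmn1r112 spread more widely, from 0.216 to 1.37 for Vmn1r139, from 0.169 to 1.76 for Vmn1r132 and from 0.116 to 0.587 for Vmn1r157. Although Vmn1r139 and Vmn1r132 have the same coding sequence, their FPKM differed in each of these libraries. Vmn1r132 was the lower one except in late 2-cell WT 1 (0.943 against 0.650 FPKM) and mKO 1 (0.381 against 0.185). FPKM divides by the length of the gene model, and the RefSeq gene of Vmn1r132 spans 2403 bases against 894 for Vmn1r139. Which gene models lie behind the deposited values is not stated, and the part of length in these differences was not tested.

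**Figure D2:**
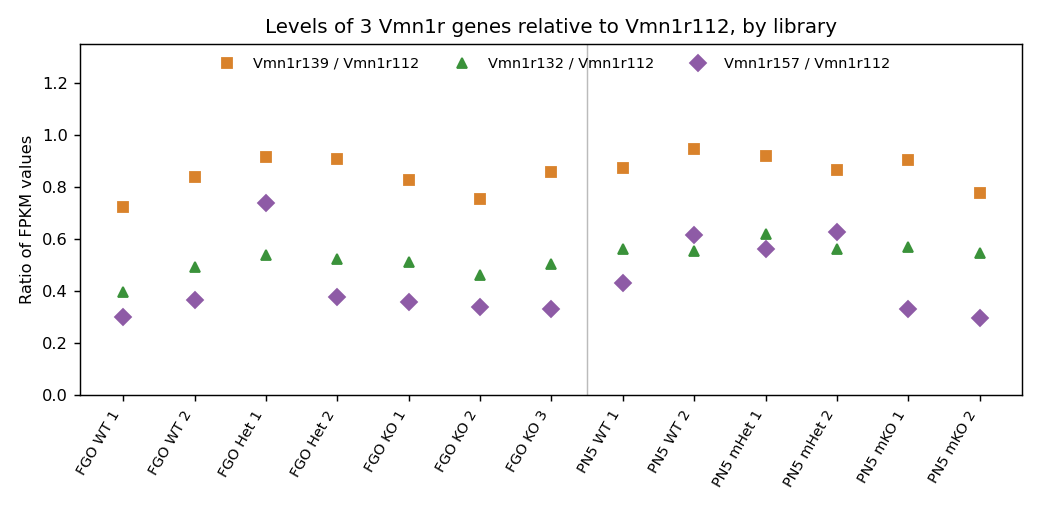
Ratio of the FPKM of Vmn1r139, Vmn1r132 and Vmn1r157 to that of Vmn1r112 (linear axis from 0) in each of the 7 oocyte (FGO) and 6 1-cell (PN5) libraries, 1 point for each gene and library. Vmn1r139 stays between 0.725 and 0.948 and Vmn1r132 between 0.395 and 0.619, while Vmn1r157 ranges from 0.299 to 0.740.

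Members with a similar coding sequence had low oocyte values. A coding sequence, taken as the longest reading frame from ATG to a stop codon, was found for 206 members. Beyond the 4 copies, 33 members had a coding sequence at least 90% identical to that of Vmn1r112 (90.7 to 95.3%), and their highest value in any oocyte library was 0.576 FPKM. The closest, Vmn1r100 and Vmn1r148, reached 0.0990 and 0.243 FPKM. Of the 33, 11 reached 0.1 FPKM. The 169 members below 90% identity reached at most 1.16 FPKM, which was Vmn1r35. Vmn1r125, at 94.6% identity, was the highest of the 33, with 0.576 in WT 1 and at most 0.216 in the other oocyte libraries. Of the copies' 100-base stretches, 182 also occur in Vmn1r100 and in Vmn1r148 and 161 in Vmn1r125. Such members can share reads with the copies, so their own values are uncertain too.

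**Figure D3:**
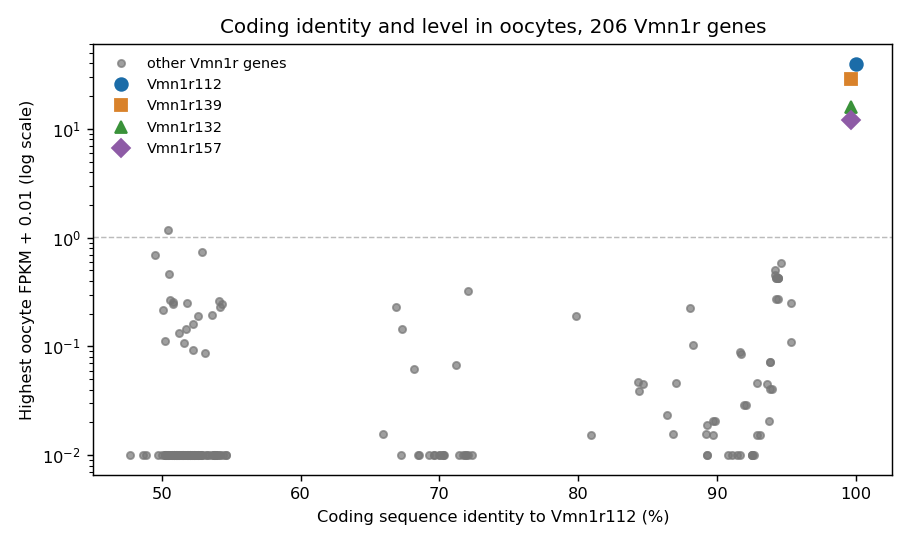
Highest FPKM in any oocyte library plus 0.01 (log axis) against the identity of the coding sequence to Vmn1r112 (percent) for 206 Vmn1r genes, 1 point per gene, with a dashed line at 1 FPKM. The 4 copies lie at 12.0 FPKM and above, and the 33 other genes with at least 90% identity lie at or below 0.576 FPKM.

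The DNA before the coding sequence was identical in the copies for which it was given. RefSeq (GRCm38.p6) gave a window of 300 bases, from 250 before the annotated start to 50 after it, for 183 of the 208 members. The windows of Vmn1r112 (chr7:20770935-20771234), Vmn1r139 (chr7:22096617-22096916) and Vmn1r157 (chr7:22761447-22761746), all on the plus strand, were identical. The coding sequence starts at base 251, so these gene models begin at the start codon and the position of the oocyte transcription start is unknown. The shared window is shown because 3 of the 4 copies have it, with capitals at the motifs searched for.
Vmn1r112: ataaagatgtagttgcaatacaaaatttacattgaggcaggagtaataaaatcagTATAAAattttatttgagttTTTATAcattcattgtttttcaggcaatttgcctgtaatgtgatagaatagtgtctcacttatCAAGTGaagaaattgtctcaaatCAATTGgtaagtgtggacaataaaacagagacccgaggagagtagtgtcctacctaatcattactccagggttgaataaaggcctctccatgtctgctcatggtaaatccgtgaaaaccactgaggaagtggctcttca
The TATA-box letters TATAAA were found on either strand at bases 56 and 76, and 13.6% of all 32851 windows and 44.3% of the members' windows hold such a match. The E-box letters CANNTG, read by several oocyte and neuronal transcription factors, were at bases 139 and 162, and 72.3% of all windows and 79.8% of the members' hold a match. The homeodomain letters TAATTG were not in this window and are in 8.00% of all windows and 12.6% of the members'. The matches do not overlap one another, and a match describes letters and not a bound site. Vmn1r100 differs from this window at only 2 of 300 bases, A4C and T44A counted from the window's first base, outside the capitals. It stayed at or below 0.0990 FPKM in oocytes, but its coding sequence is identical to that of Vmn1r148, so its own value is uncertain. Vmn1r124 differs at 4 bases and reached 0.0105 FPKM. By RefSeq's gene order, the nearest neighbours of the copies that the oocyte table lists are Vmn1r113, after Vmn1r112, Vmn1r158, after Vmn1r157, and Gm16451, after Vmn1r139, and none was above 0.0054 FPKM in oocytes.

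In 1-cell embryos the same 4 genes were the only members at 1 FPKM or more, of the 24 that the table lists. Vmn1r112 was at 12.3 and 20.3 FPKM (WT), 11.1 and 16.2 (mHet) and 6.60 and 24.2 (mKO). The 2 mKO libraries were the lowest and the highest of the stage. Vmn1r139 was at 10.7 and 19.2 FPKM (WT), 10.3 and 14.0 (mHet) and 5.97 and 18.8 (mKO). Vmn1r132 was at 6.91 and 11.2 (WT), 6.90 and 9.09 (mHet) and 3.75 and 13.2 (mKO). Vmn1r157 was at 5.30 and 12.5 (WT), 6.29 and 10.2 (mHet) and 2.18 and 7.21 (mKO). In each genotype the library numbered 2 was the higher one for all 4 copies, and the genotypes overlapped for every copy. Without overlap with WT stood 0 of 4 members in either direction, against 16.9% of all genes lower and 8.81% higher in mKO and 11.3% lower and 11.4% higher in mHet.

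No member passed the threshold at the 1-cell stage by limma with Benjamini-Hochberg adjustment, in mKO (adjusted p = 0.999957 for each, 0 of 4 at an unadjusted p under 0.05) or in mHet (adjusted p = 0.999972, 0 of 4). The shares of all 8604 genes called were 0.0116% in mKO and 0% in mHet, and 214 and 72 of them had an unadjusted p under 0.05 by limma. Log2 differences from WT ran from -0.85 ± 0.54 (SE, Vmn1r157) to -0.26 ± 0.51 (Vmn1r132) in mKO and from -0.24 ± 0.50 (Vmn1r139) to -0.03 ± 0.54 (Vmn1r157) in mHet. The sums of the copies were 49.2 ± 19.8 FPKM in WT, 42.0 ± 10.5 in mHet and 41.0 ± 31.8 in mKO (SD, n = 2 each). The copies held 96.8 to 99.6% of the sum over the 24 members listed at this stage. That share cannot be set against the oocyte share, where all 208 members are listed. Whether the oocyte difference and the 1-cell difference are unequal was not tested, because the tables were normalized apart.

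At the late 2-cell stage the copies had low values and other members stood beside them. Of 55 members listed, 8 reached 1 FPKM in at least 1 library and 5 did so in at least 2. Vmn1r112 was at 1.43 and 2.90 FPKM (WT), 3.43 and 1.20 (mHet) and 0.216 and 4.34 (mKO). The sum of the 4 copies was 3.19 and 5.63 (WT), 5.15 and 4.93 (mHet) and 0.861 and 8.58 (mKO), so that mKO again held both the lowest and the highest library. The copies were 17.6 to 70.1% of the sum over the 55 members listed.

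Of the copies, Vmn1r112, Vmn1r139 and Vmn1r132 were tested at this stage, and Vmn1r210 and Vmn1r90 were the other members tested. Vmn1r210, on chromosome 13, was at 0.320 and 0.280 FPKM (WT), 1.26 and 1.65 (mHet) and 2.12 and 0.912 (mKO). Both mHet and mKO lay above WT without overlap, as did 13.7% of the 10322 genes kept in mKO and 16.4% in mHet. Vmn1r210 was kept for testing only through mHet and mKO libraries, so nothing is read from its place above WT. The log2 differences of Vmn1r210 were 0.91 ± 0.35 (SE) in each, and neither passed by limma with adjustment (adjusted p = 0.605 in mKO and 0.999913 in mHet). Vmn1r90, on chromosome 7, was at 3.37 and 1.10 FPKM (WT), 0.889 and 0.0113 (mHet) and 1.12 and 0.368 (mKO). Its mHet libraries lay below WT without overlap, as did 14% of the genes kept, at a log2 difference of -1.13 ± 0.48 (SE) that did not pass (limma, adjusted p = 0.999913). Vmn1r90 was kept through WT and mKO libraries and not through mHet, so nothing is read from that place below WT. In mKO Vmn1r90 overlapped WT, at -0.83 ± 0.48 (SE), and 0 of 5 members lay below WT without overlap there, against 23.3% of the genes kept.

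Over the 5 members tested at the late 2-cell stage, limma with adjustment called 0 in mKO and 0 in mHet, where it called 0.00969% and 0% of all genes. An unadjusted p under 0.05 was found for 1 member in mKO (Vmn1r210) and 2 in mHet (Vmn1r90 and Vmn1r210). Over all 10322 genes kept, 780 in mKO and 303 in mHet had such a p by limma. Both members were kept through groups in which they were high, so nothing is read from these counts. Vmn1r139 and Vmn1r132 had differences between -0.10 and 0.24, smaller than their standard errors of 0.46 and 0.38. Vmn1r112 differed from WT by -0.27 ± 0.67 (SE) in mKO and by 0.02 ± 0.67 in mHet. Vmn1r88 reached 1.43 FPKM in 1 mKO library and Vmn1r174 1.05 in 1 WT library, and neither entered the test. Vmn1r157 reached 1.05 in 1 mKO library and did not enter the test either.

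By the 8-cell stage the signal was at or near 0. None of 24 listed members reached 1 FPKM in the 6 libraries. Vmn1r112 and Vmn1r139 were at 0.0570 FPKM in the mHet library and listed at 0 in the other 5. Vmn1r210 was the highest, at 0.421 in 1 mKO library. The 24 symbols are those that the 1-cell table lists too, because both tables give the same 14055 genes, and 184 members are not in either.

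The E3.5 embryos also held little. No member reached 1 FPKM in the first table, where 205 are listed over 6 libraries. Its highest members were Vmn1r53, at 0.82 and 0.47 in mKO, 0.19 and 0 in WT and 0 in both mHet libraries, and Vmn1r3, at 0.59 and 0.81 in WT and between 0 and 0.27 in the others. The second E3.5 table had 2 of 208 members at 1 FPKM or more, Vmn1r196 at 1.13 and Vmn1r47 at 1.10, both in WT 4 alone. All 4 copies were listed at 0 in each library of the first table and stayed at or below 0.0802 in the second.

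At E4.25 more members reached 1 FPKM than at any other stage, 13 of 78 listed, and each did so in a single library. Of all genes that reached 1 FPKM at E4.25, 19.2% did so in exactly 1 library, against 5.18 to 9.11% in the other tables. WT 1 held 7 of them and WT 2 held 5. The highest were Vmn1r211, at 4.82 in WT 2, Vmn1r24, at 3.86 in WT 1, Vmn1r216, at 3.82 in WT 1, and Vmn1r14, at 2.78 in WT 2. Vmn1r211, Vmn1r216 and Vmn1r14 were listed at 0 in the other 8 libraries, and Vmn1r24 was at 0.80 in WT 2 and 0.04 in mKO 3. The last member, Vmn1r47, was at 1.63 in mKO 3, at 0.51 in mHet and at 0.32 and 0.31 in mKO 2 and mKO 4. None of the 13 is on chromosome 7, where 105 of the 208 members lie, though 130 of the 208 are not listed at E4.25. They lie on chromosome 6 (8 members), 13 (3), 17 (1) and 4 (1).

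WT 1 and WT 2 stood apart in other receptor genes as well. They had 36 and 28 olfactory receptor genes (Olfr) at 1 FPKM or more, against 0 to 3 in the other 7 libraries. Rn45s took 21.0 and 38.6% of their summed FPKM, within the range of the others, and the summed trophoblast markers were at 165.6 and 67.1 FPKM. WT 3, by contrast, had trophoblast markers at 0 and epiblast markers at 0.107, with 1 member above 0. Without WT 1 and WT 2, 1 member (Vmn1r47) was at 1 FPKM or more. No member reached 1 FPKM in 2 libraries, so none entered the comparison of mKO with WT.

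**Figure D4:**
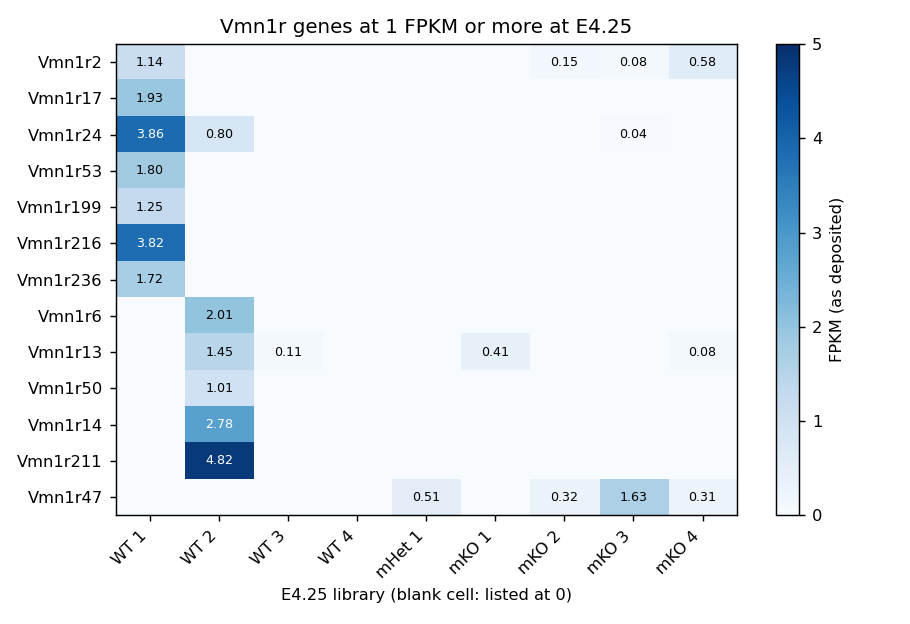
FPKM as deposited (colour scale from 0 to 5, values printed where above 0) of the 13 Vmn1r genes that reach 1 FPKM at E4.25, in rows, for the 9 libraries in columns, with mHet 1 standing for the 2 identical mHet columns. WT 1 holds 7 of the 13 and WT 2 holds 5, most other cells are blank, and no gene reaches 1 FPKM in more than 1 library.

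At E6.5 Vmn1r53 was the only one of 205 members to reach 1 FPKM, at 1.04 in 1 mKO library of extraembryonic ectoderm. It was at 0.85 and 0.40 in WT extraembryonic ectoderm, 0.47 and 0.31 in mHet and 0 in the other mKO library. In epiblast it ran from 0 to 0.41 FPKM. All 4 chromosome 7 copies were listed at 0 in every E6.5 library, and at E4.25 they were above 0 only in mKO 2 and mKO 3, at no more than 0.0929 FPKM.

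Over the whole series 23 members reached 1 FPKM in at least 1 library, and 15 of these did so in 1 library of the 67. Only the 4 copies reached 10 FPKM. At 0.1 FPKM the number was 108, and 61 members were at 0 or not listed everywhere. In 10 of the 16 comparisons of a Het, KO, mHet or mKO group with WT no member was kept for testing. For comparison, 43.4% of the 24056 genes listed in the oocyte table reached 1 FPKM in at least 1 library, against 2.40% of the 208 members. At E4.25 it was 61.1% of the 19337 genes listed, against 16.7% of the 78 members listed. The tables list different genes, so these shares are not compared between stages.

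**Figure D5:**
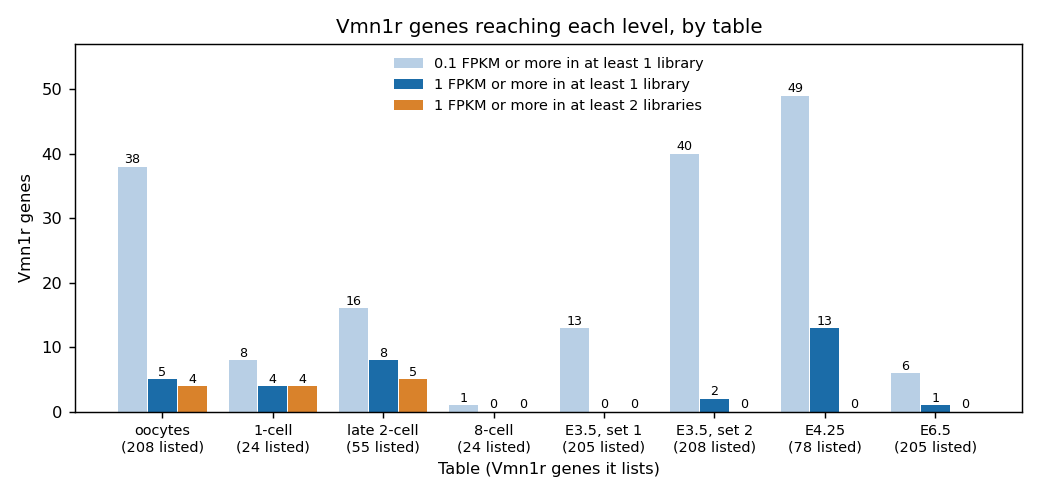
Number of Vmn1r genes that reach 0.1 FPKM or 1 FPKM in at least 1 library, or 1 FPKM in at least 2 libraries (bars from 0, counts printed above), for each of the 8 tables, with the number of Vmn1r genes listed below its name. Genes at 1 FPKM in at least 2 libraries are found in the oocyte (4), 1-cell (4) and late 2-cell (5) tables, and E4.25 has 13 that reach 1 FPKM in 1 library each.

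Other chemoreceptor families were read in the same way in oocytes, with no test of a difference between families. Of 1102 olfactory receptor genes 27 reached 1 FPKM (2.45%), led by Olfr976 at 43.7 FPKM, and 2 of 121 family-2 vomeronasal receptor genes did (1.65%), led by Vmn2r51 at 5.89. In 1-cell embryos Vmn2r51 reached 10.4 FPKM. In oocytes 1 of 15 trace amine receptor genes (Taar9, 2.34) and 0 of 6 formyl peptide receptor genes reached 1 FPKM.

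The signalling genes that accompany these receptors in vomeronasal neurons were mostly low in the oocytes. Of a list of 20 genes, 5 had a median of at least 1 FPKM over the oocyte libraries. Gnai2, which is expressed in many cell types, was at a median of 8.25 FPKM. The channel gene Trpc2 was at 0.146 and Gnao1, the G protein subunit that pairs with family-2 receptors, at 0.0250. Omp, which marks mature olfactory and vomeronasal neurons, was listed at 0 in every oocyte library, as were the neuronal transcription factor genes Bcl11b and Neurog1. Higher medians were those of Calr4, a calreticulin chaperone gene (53.7), and of the transcription factor genes Meis2 (101) and Tfap2e (23.6). The remaining one of the 5 was Cnga4, at a median of 1.08 FPKM. Between 4 and 7 of the 20 were kept for testing in the oocyte, 1-cell and late 2-cell tables, and limma with adjustment called 0 higher and 0 lower in each of the 6 comparisons, with 0 at an unadjusted p under 0.05.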

How the data were processed

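Per the labels' protocols, polyadenylated RNA was turned into Smart-seq2 libraries for the DNBSEQ-T7 sequencer. The authors deposited 8 tables of FPKM per gene and library, per the file headers. The submitters' processing notes name the tools HISAT2 (2.2.1), HTSeq (0.6.0) and Trim Galore (0.4.2) and list mm9 and hg19 as builds without saying what each served for. The annotation, the treatment of reads with several origins and the depth are not given, and the low values show no step worth 1 read, so no counting interval is given. Gene names that had become dates were dropped (25, 27 and 27 of them in the 3 affected files). Epiblast columns were matched to their group alone.

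Groups were compared within a table with limma 3.58.1 (R 4.3.3) on log2(FPKM + 1), for genes that reached 1 FPKM in 2 or more libraries, with group means, a trend, a spread shared by all groups of the table, two-sided tests and Benjamini-Hochberg adjustment over all genes kept (threshold 0.05). The script was tested on simulated data. Alternatives were a pseudocount of 0.1, no filter, median ratio scaling, the compared groups alone, a replicate block, a split of the library-name numbers as a term and leaving out libraries. The members, lists and tests were chosen with earlier results of these data known. Named members are Vmn1r112, Vmn1r139, each member kept in a table and the 10 with the highest value in a library. Others named in the text were chosen after their values were seen. Coding sequences are from GENCODE M21 and upstream windows from RefSeq, both on GRCm38. Chromosomes were taken by gene name from RefSeq.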

Additional observations from a re-analysis of the deposited data

Results flagged for a closer look

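Groups of 4 or 5 libraries were checked for a library far from the rest of its group, in 25 combinations of a named member (or the family's summed FPKM) and a group, and 12 had one. Chance gives about 1 in 20 such groups, and most of these groups hold a single value above 0, for which the check always answers yes. At E4.25 the distant libraries were WT 2 for Vmn1r211 (4.82 FPKM) and Vmn1r14 (2.78), WT 1 for Vmn1r216 (3.82) and mKO 3 for Vmn1r24 (0.0363). In the second E3.5 table they were WT 6 for Vmn1r24 (0.277), mHet 4 for Vmn1r14 (0.374) and Vmn1r132 (0.00932), WT 3 for Vmn1r132 (0.0326), mKO 5 for Vmn1r210 (0.229), and mKO 7 for Vmn1r112 and Vmn1r139 (0.0802 each) and Vmn1r157 (0.0535).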

How the results depend on the processing

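Nothing is read from member calls in KO against WT oocytes, the contrast that chose the family. In the other 15 comparisons no alternative brought a member past the threshold (0 called in each of 151 alternative fits), and 10 of them test no member with the filter on. The replicate block gave 0 called members in each comparison in which it was fitted, and E6.5 epiblast columns carry no usable number. Same-numbered libraries correlated at 0.71 in Het and WT oocytes and at -0.33 to 0.59 in KO and WT, and nothing says that a number pairs libraries. In Het against WT oocytes 0 of 40 alternative differences turned sign. They refit the same libraries for copies that can share reads, and the WT libraries took part in the choice, so nothing is read from this. In embryos, where no difference passed, sign turned in 22 cases. The alternative differences numbered 237 over oocytes and embryos together, 84 of them in oocytes. Leaving one library out gave, at the 1-cell stage in mKO, -1.14 to 0.58 (Vmn1r112), -1.05 to 0.53 (Vmn1r132) and -1.14 to 0.36 (Vmn1r139), and in mHet -0.58 to 0.52 (Vmn1r157), -0.56 to 0.12 (Vmn1r112), -0.46 to 0.17 (Vmn1r132) and -0.64 to 0.15 (Vmn1r139). At the late 2-cell stage it gave, in mKO, -0.12 to 0.64 (Vmn1r139), -1.34 to 0.80 (Vmn1r112) and -0.10 to 0.29 (Vmn1r132), and in mHet -0.48 to 0.52 (Vmn1r112) and -0.0039 to 0.29 (Vmn1r132). A pseudocount of 0.1 turned Vmn1r139 in mKO to -0.29 and Vmn1r112 in mHet to -0.00033. The cause was not tested.

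The number of members present depends on the level asked for. In the order oocytes, 1-cell, late 2-cell, 8-cell, E3.5 (first and second table), E4.25 and E6.5, it was 5, 4, 8, 0, 0, 2, 13 and 1 at 1 FPKM in at least 1 library. It was 38, 8, 16, 1, 13, 40, 49 and 6 at 0.1 FPKM, 4, 4, 5, 0, 0, 0, 0 and 0 at 1 FPKM in at least 2 libraries, and 4, 4, 0, 0, 0, 0, 0 and 0 at 10 FPKM. With one library left out it ran from 6 to 8 at the late 2-cell stage, 0 to 2 in the second E3.5 table, 6 to 13 at E4.25 and 0 to 1 at E6.5, and without both WT 1 and WT 2, an alternative added after seeing the data, it was 1 at E4.25. In the 6 comparisons that keep a member, the number of all genes called moved by over 1.5 times. It went in KO oocytes from 1 to at most 6 (without WT 1) and in 1-cell mKO from 1 to 0 (no filter). In late 2-cell mKO it went from 1 to between 0 (pseudocount 0.1) and 22 (replicate block). Het oocytes and both mHet comparisons went from 0 to at most 1. Depth is unknown, so values near 0 cannot be told from no expression.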
